A study of Caenorhabditis elegans with 8 samples.

Results

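The genes described here are 33 genes of synapses and chemical signalling between neurons in Caenorhabditis elegans, taken by name from a fixed list and matched to the files by their WormBase gene identifiers. All 33 are among the 46904 genes of the files, and 30 of them passed a filter on low counts, as did 13722 genes in all. They form 3 groups: 16 genes of the vesicle cycle, 12 genes that set which transmitter a neuron uses, and 5 genes of neuropeptide processing and release. RNA was sequenced from whole worms on day 1 of adulthood, kept at 20 °C, and the study asked how hel-1 mutations change gene expression in wild-type and in daf-2 mutant worms. The 4 genotypes were hel-1(gk148684); daf-2(e1370) (strain IJ1121, the double mutant below), daf-2(e1370) (strain CF1041), hel-1(gk148684) (strain IJ501) and wild type N2, each with 2 libraries that the labels call independent biological repeats. daf-2 encodes the insulin/IGF-1 receptor and e1370 lowers its function, and hel-1 encodes a DEAD-box RNA helicase.

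At a chemical synapse, vesicles are loaded with transmitter, docked and primed at the active zone, and fused with the membrane by the SNARE proteins when calcium enters. The vesicle membrane is then taken back by endocytosis. Each neuron type is marked by the enzymes and transporters of its own transmitter, while neuropeptides are cut from precursors and released from dense core vesicles. In the adult hermaphrodite, neurons are a small part of the body beside the germline, intestine, muscle and hypodermis. In RNA from whole animals, fewer cells of a type and less RNA per cell cannot be told apart.

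The libraries held between 31555363 and 37552494 counts. One library stood apart: the log2 difference between the 2 libraries of a genotype had a standard deviation over all tested genes of 0.521 for the daf-2 pair, against 0.229 for the double mutant, 0.263 for hel-1 and 0.32 for wild type. daf-2 replicate 2 had 142 CPM (counts normalised to library size) summed over 10 pharynx markers, against 19.2 CPM in replicate 1 and 14.2 to 22.9 CPM in the other 6 libraries. The counts of members that edgeR called in comparisons with daf-2 are therefore also given without that library. The transcripts of the 2 mutated genes do not check the labels, because counts per gene do not show these alleles: hel-1 stood at 565 and 526 CPM in hel-1 mutants and 618 and 601 CPM in wild type (log2 fold change -0.16 ± 0.10, adjusted p = 0.521).

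Scaled by exon length, the levels of the members ran from 0.0214 CPM per kb of annotated exon (cat-2) to 125 (snb-1). The highest levels, as means over the 8 libraries, were those of snb-1, the vesicle SNARE synaptobrevin, at 125 CPM per kb, tbh-1 at 106 and tdc-1 at 94.7. tdc-1 (tyrosine decarboxylase, which makes tyramine) and tbh-1 (tyramine beta-hydroxylase, which turns tyramine into octopamine) are used by a few neurons and also by gonad sheath cells. Next came unc-57 (endophilin) at 68.6, unc-11 (the clathrin adaptor AP180) at 35.7 and ric-7, a gene needed for neuropeptide release, at 35.2 CPM per kb. unc-18 (Munc18), egl-21 (carboxypeptidase E) and unc-26 (synaptojanin) followed at 14.5, 12.8 and 10.5 CPM per kb. The other 24 members lay between 0.0214 and 7.14 CPM per kb.

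Within the transmitter identity group the spread was widest. tdc-1 and tbh-1 together made 96.6 to 99.1% of that group's CPM in each library, and 37.5 to 48.1% of the CPM of all 33 members. The other 10 transmitter genes had between 15 (cat-2) and 703 (unc-25) counts in total over the 8 libraries. The genes that define cholinergic, GABA, glutamate, serotonin and dopamine neurons are, apart from unc-25, among the least deeply counted members: unc-17 (vesicular acetylcholine transporter) stood at 0.368 CPM per kb, eat-4 (vesicular glutamate transporter) at 0.246, cat-1 (vesicular monoamine transporter) at 0.175 and tph-1 (tryptophan hydroxylase) at 0.111.

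**Figure D1:**
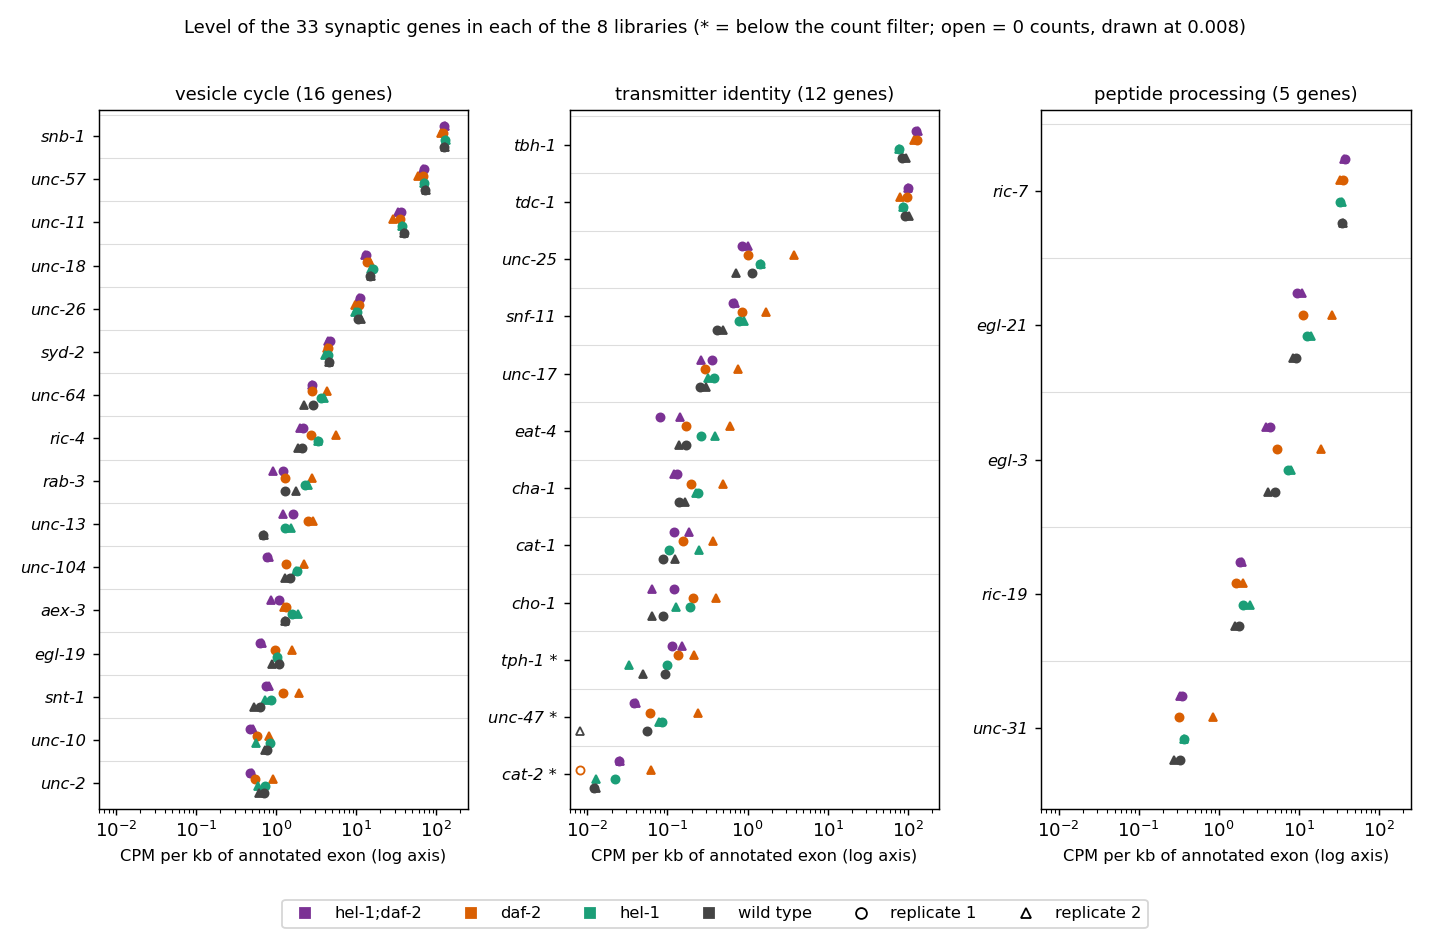
Level of each member in each library, in CPM per kb of annotated exon on a log axis, with 1 point per library, colour for genotype and shape for replicate. The panels hold the 16 vesicle cycle, 12 transmitter identity and 5 peptide processing genes ordered by mean level, and daf-2 replicate 2 (orange triangle) is the highest point for 21 of the 33 genes.

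In daf-2, 4 members rose relative to wild type, 0 fell and 26 did not pass the test (edgeR's quasi-likelihood test with Benjamini-Hochberg adjustment over all tested genes, threshold 0.05, as for every adjusted p below). Over all tested genes 12.1% were called higher and 7.21% lower, so the members' share of rises, 4 of 30, was near the background. In 11 of the 30 tested members both daf-2 libraries were above both wild-type libraries and in 5 they were below. These shares were 35.7% and 28.9% of all tested genes. Median log2 fold changes of markers were 2.58 for pharynx, 1.23 for hypodermis, 0.81 for body wall muscle, 0.43 for neurons, 0.17 for sperm and -0.30 for oocytes and germline. Their part in the members' values was not tested. The median log2 fold change of the tested members was 0.45, beside 0.0997 over all tested genes. It was 0.0476 for the vesicle cycle (2 of 16 rose), 1.33 for transmitter identity (2 of 9 tested members rose) and 0.94 for peptide processing (0 of 5 rose). The 9 include cho-1 (2.0), which does not pass the count filter without the daf-2 libraries. The transmitter identity medians, here and below, thus draw on a member admitted through the genotype where it is high. Without daf-2 replicate 2, 2 members rose (6.34% of all tested genes did), 0 fell, and the median was 0.06, with 0.39 for transmitter identity, 0.09 for peptide processing and -0.03 for the vesicle cycle.

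The member with the smallest adjusted p was unc-13 (chromosome I, 7422785 to 7454116, plus strand, WBcel235), which encodes Munc13, the protein that primes docked vesicles for fusion. It had 16.9 and 19.8 CPM in daf-2 and 4.74 and 4.75 CPM in wild type, while the double mutant had 11 and 8.41 CPM and hel-1 had 8.88 and 10.5 CPM. Both wild-type libraries lay below all 6 mutant libraries, and both daf-2 libraries lay above the rest. Its mean was 18.4 ± 2.03 CPM in daf-2 and 4.74 ± 0.00876 CPM in wild type (SD, n = 2 each), a log2 fold change of 1.95 ± 0.18 (SE, adjusted p = 0.00107), or 3.87-fold. The call held in all 8 fits that left out 1 library, with values between 1.85 and 2.03.

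tbh-1 (chromosome X, 15500256 to 15504895, minus strand) rose by less. It had 286 and 260 CPM in daf-2 and 186 and 207 CPM in wild type, with no overlap between the genotypes (log2 fold change 0.47 ± 0.09, adjusted p = 0.0164, 1.39-fold). The call ended without either wild-type library (adjusted p = 0.130 and 0.0893) or either double-mutant library (0.0508 and 0.0509). It did not rest on daf-2 replicate 2, where tbh-1 was lower than in replicate 1.

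snt-1 and snf-11 rose with a wide spread in daf-2. snt-1 (chromosome II, 6810963 to 6816433, plus strand) encodes synaptotagmin, the calcium sensor of vesicle fusion, and had 2.30 and 3.69 CPM in daf-2 and 1.19 and 1.02 CPM in wild type (1.43 ± 0.31, adjusted p = 0.0219). snf-11 (chromosome V, 11305070 to 11308446, minus strand), the plasma membrane GABA transporter, had 1.83 and 3.64 CPM in daf-2 and 0.872 and 1.06 CPM in wild type (1.51 ± 0.36, adjusted p = 0.0300). Both daf-2 libraries lay above wild type for each gene, and replicate 2 was the higher of the daf-2 pair. Without it, snt-1 stood at 1.07 (adjusted p = 0.0558) and snf-11 at 0.94 (0.0817), and neither was called. The calls also ended without either wild-type library, and that of snf-11 without any 1 of the hel-1 or double-mutant libraries.

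**Figure D2:**
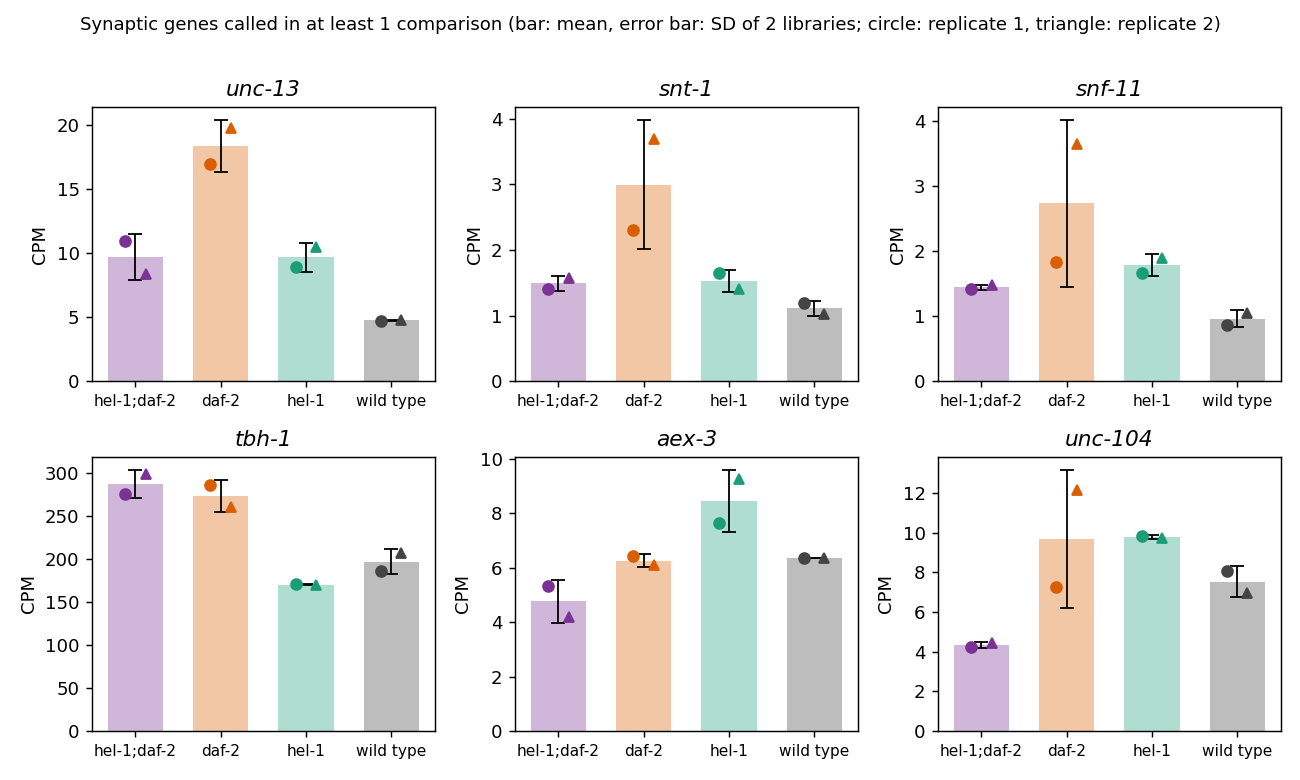
CPM in each library of the 6 members that passed the test in at least 1 of the 4 pairwise comparisons, each panel on its own linear axis from 0. Bars are means of 2 libraries with SD, and points are the libraries: unc-13 is lowest in wild type and highest in daf-2, tbh-1 is high in both genotypes that carry daf-2(e1370), and unc-104 and aex-3 are lowest in the double mutant.

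Several members lay just outside the threshold in daf-2, and most of them were highest in replicate 2. egl-3, the proprotein convertase that cuts neuropeptide precursors, had 13.9 and 48.2 CPM in daf-2 and 12.8 and 10.5 CPM in wild type (1.41 ± 0.47, adjusted p = 0.0667). egl-21, the carboxypeptidase that trims the cut peptides, had 19.4 and 43.7 CPM in daf-2 and 15.8 and 14.5 CPM in wild type (1.06 ± 0.32, adjusted p = 0.0513). unc-25, the glutamate decarboxylase that makes GABA, had 1.77 and 6.51 CPM in daf-2 and 1.98 and 1.24 CPM in wild type (1.37 ± 0.54, adjusted p = 0.103). For these 3 genes the first daf-2 library stood within, or not far above, the wild-type range, and the second was more than any other library.

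cho-1, the choline transporter of cholinergic terminals, was nearest to the threshold of all members (2.0 ± 0.59, adjusted p = 0.0503), with 0.410 and 0.798 CPM in daf-2 and 0.174 and 0.124 CPM in wild type, and 89 counts in total over all libraries. It passed the count filter through the daf-2 libraries, where it is high, and does not pass it without them. ric-4 (SNAP-25) had 3.34 and 6.81 CPM in daf-2 and 2.62 and 2.33 CPM in wild type (1.04 ± 0.32, adjusted p = 0.0567). On the lower side, unc-11 had 96.6 and 78.5 CPM in daf-2 and 110 and 110 CPM in wild type (-0.33 ± 0.10, adjusted p = 0.0536). The other endocytosis genes unc-57 (-0.20 ± 0.08, adjusted p = 0.0978) and unc-26 (-0.08 ± 0.09, adjusted p = 0.506) were not called either.

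The difference between the 2 daf-2 libraries extended over most members. Replicate 2 was above replicate 1 for 21 of the 30 tested members and below for 9. The median log2 difference, taken on CPM + 0.5 as for all medians in this paragraph, was 0.58, beside 0.0254 over all tested genes. It was 0.33 for the vesicle cycle, 0.74 for transmitter identity and 1.15 for peptide processing. The added 0.5 shrinks the differences of genes with few CPM: eat-4, 3.56-fold higher in replicate 2, enters as 1.07. The order of the 3 groups is therefore not read as a result. In the double mutant, hel-1 and wild type the medians over the 30 members were -0.025, 0.0042 and -0.0081. In the same daf-2 pair the median difference was 2.62 for 8 tested pharynx markers, 1.3 for 10 sperm markers, 1.07 for 10 body wall muscle markers, 0.69 for 10 hypodermis markers and 0.29 for 10 general neuron markers. It was -0.37 for 10 oocyte and germline markers and 0.09 for 9 intestine markers. The sperm markers differed more in the wild-type pair, with a median of -1.78. Their sums in replicates 1 and 2 were 84.5 and 20.5 CPM in wild type and 26.3 and 81.6 CPM in daf-2. Summed over its list, daf-2 replicate 2 had 5402 CPM of muscle markers against 2278 to 2838 CPM in the other 7 libraries, 1688 CPM of hypodermis markers against 637 to 1023 CPM, and 7170 CPM of oocyte and germline markers against 8646 to 10764 CPM. The part of these tissue differences in the members' values was not tested.

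**Figure D3:**
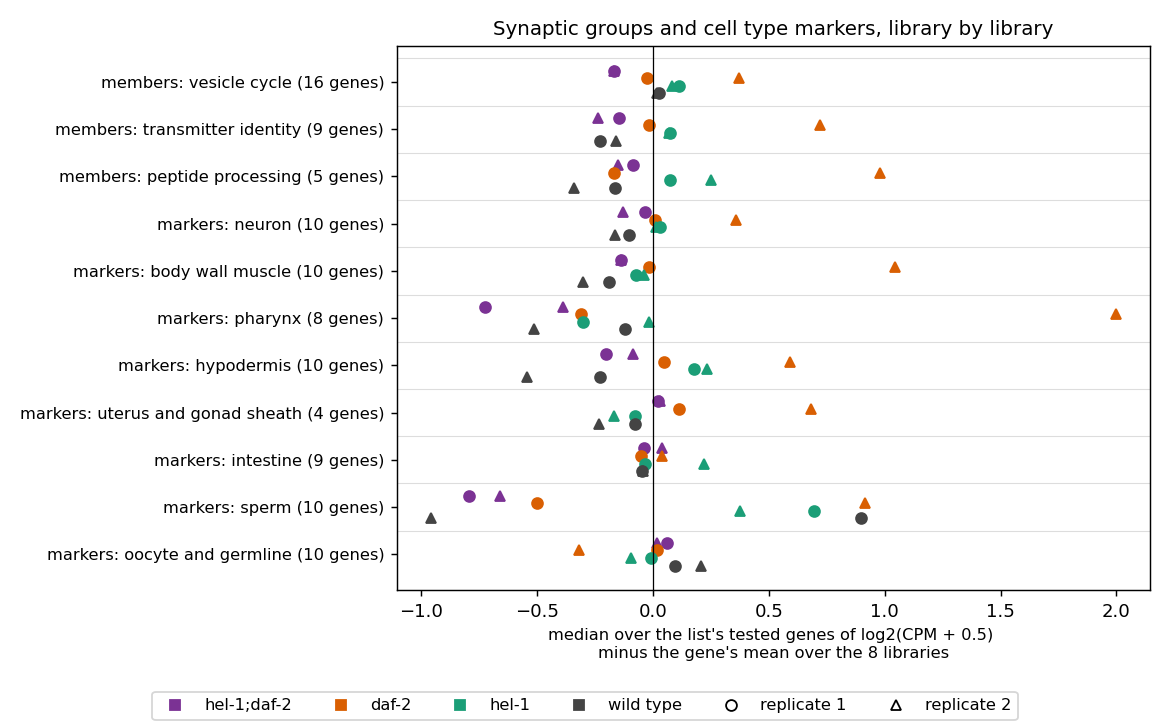
Median over the tested genes of each list of log2(CPM + 0.5) minus the gene's mean over the 8 libraries, with 1 point per library. daf-2 replicate 2 (orange triangle) lies highest for the 3 synaptic groups and for the neuron, muscle, pharynx, hypodermis, and uterus and gonad sheath markers, and lowest for oocyte and germline markers.

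The members that did not follow this difference were those with high levels. Of the 9 members at or above 10 CPM per kb (a limit set after the values were seen), 7 had lower values in daf-2 replicate 2 relative to replicate 1, while unc-18 and egl-21 had higher values. Of the 24 below it, 22 were higher and 2, aex-3 and syd-2, were lower. Across the 30 tested members the log2 difference between the daf-2 libraries was taken on CPM + 0.5. Against the log2 level per kb it had r = -0.56 and rho = -0.55, a description over genes that share the same 2 libraries. The added 0.5 shrinks the differences of members with few CPM. The medians of the comparisons are given on both sides of this limit as a description. In the comparisons with daf-2, which hold the same 2 libraries, a split follows from that difference and is not a separate result. In daf-2 relative to wild type the median log2 fold change was 0.94 for the 21 tested members below the limit and -0.08 for the 9 above it. In hel-1 relative to wild type the medians were 0.57 and -0.08, and in the double mutant relative to daf-2 they were -0.93 and 0.105.

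**Figure D4:**
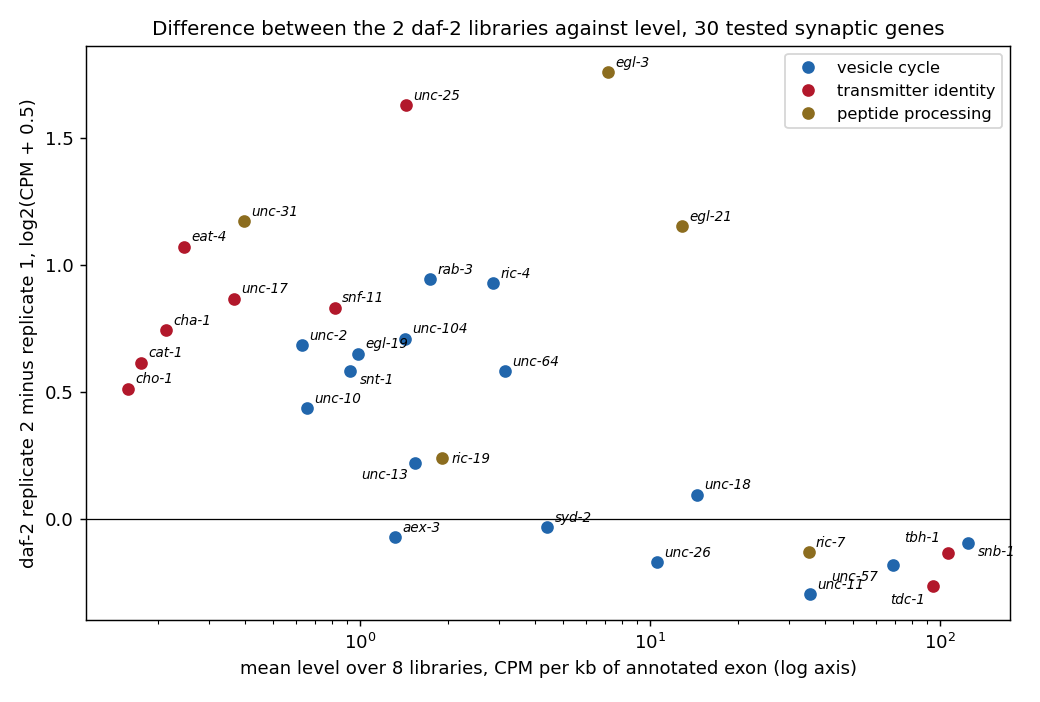
Log2 difference in CPM + 0.5 between daf-2 replicate 2 and replicate 1 against mean level in CPM per kb (log axis), 1 point for each of the 30 tested members, coloured by group. Of the members at 10 CPM per kb and above, 7 of 9 lie below 0, while egl-3 and unc-25 lie highest.

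In hel-1 relative to wild type, 0 of the 30 tested members passed edgeR's test, where 0.364% of all tested genes were called higher and 0.051% lower. At an unadjusted p under 0.05, 3 members were higher and 0 lower, where 8.91% and 3.29% of all tested genes were. DESeq2 called 1 higher, unc-13, where it called 1.55% of all tested genes higher. With the libraries of these 2 genotypes alone, 28 members pass the filter, and cho-1 and cat-1 do not. In that edgeR fit, which leaves out the spread of the daf-2 pair, 3 members were called higher and 0 lower. Over all tested genes 1.42% and 0.223% were. With all libraries, the values sorted by genotype in many members. In 19 of the 30 tested members both hel-1 libraries were above both wild-type libraries, and in 7 they were below. Over all tested genes these shares were 30% and 29.2%. The median log2 fold change was 0.38 (0.023 over all tested genes), with 0.06 for the vesicle cycle, 0.62 for transmitter identity and 0.39 for peptide processing. The daf-2 libraries enter this comparison through the shared spread, the filter and the scaling. The members' median was 0.37 without daf-2 replicate 1 and 0.40 without daf-2 replicate 2.

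unc-13 had 8.88 and 10.5 CPM in hel-1 and 4.74 and 4.75 CPM in wild type, a log2 fold change of 1.03 ± 0.18 (adjusted p = 0.0654). It was the member with the smallest p in this comparison. egl-3 had 19.1 and 20.8 CPM in hel-1 and 12.8 and 10.5 CPM in wild type (0.77 ± 0.47, adjusted p = 0.506). egl-21 had 21.6 and 24.5 CPM in hel-1 and 15.8 and 14.5 CPM in wild type (0.61 ± 0.32, adjusted p = 0.474). For all 3 genes the genotypes did not overlap and the 2 hel-1 libraries were close to each other.

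Among the SNARE and fusion genes, all 8 exocytosis members had a log2 fold change above 0 in hel-1, from 0.0575 to 1.03. Over all tested genes 7218 of 13722 were above 0. The values of snb-1 (0.0575 ± 0.0667) and unc-18 (0.0596 ± 0.0681) were smaller than their SE. None of the 8 was called by edgeR in the main fit of all libraries (in the DESeq2 fit, unc-13 was). ric-4 had 4.14 and 4.08 CPM in hel-1 and 2.62 and 2.33 CPM in wild type (0.73 ± 0.32, adjusted p = 0.417). rab-3, the small GTPase of synaptic vesicles, had 3.37 and 3.62 CPM in hel-1 and 1.86 and 2.55 CPM in wild type (0.66 ± 0.37, adjusted p = 0.487). unc-64 (syntaxin) had 9.20 and 10.2 CPM in hel-1 and 7.33 and 5.74 CPM in wild type (0.57 ± 0.22, adjusted p = 0.375). The 3 endocytosis genes went the other way, between -0.13 and -0.0758, with none called. General neuron markers had a median of 0.14, body wall muscle markers 0.21, hypodermis markers 0.64, sperm markers 0.26 and oocyte and germline markers -0.18 in this comparison, and their part in the members' values was not tested.

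In the double mutant relative to daf-2, 0 of the 30 tested members passed edgeR's test, where 0.0146% of all tested genes were called higher and 0.0364% lower. At an unadjusted p under 0.05, 0 were higher and 13 lower, where 4.01% and 12.8% of all tested genes were, and 4 were lower without daf-2 replicate 2 (4.41% of all tested genes). DESeq2 called 3 lower, unc-13, egl-19 and unc-104, where it called 1.77% of all tested genes lower. The median log2 fold change was -0.77 (-0.0202 over all tested genes), with -0.45 for the vesicle cycle, -0.93 for transmitter identity and -0.77 for peptide processing. In 18 of the 30 members both double-mutant libraries were below both daf-2 libraries and in 4 they were above, where these shares were 28.5% and 24.8% of all tested genes. Without daf-2 replicate 2 the median was -0.13 with 0 called, and without daf-2 replicate 1 it was -1.12 with 17 called lower and 5 higher of 32 tested members, where 19% of all tested genes were called lower and 21% higher. With all libraries pharynx markers had a median of -2.80, sperm markers -1.22, hypodermis markers -0.81, body wall muscle markers -0.72, general neuron markers -0.36 and oocyte and germline markers 0.19, and their part in the members' values was not tested.

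The 3 genes that DESeq2 called were lower in both double-mutant libraries than in either daf-2 library. unc-104, the kinesin that carries synaptic vesicle precursors along axons, had 4.24 and 4.45 CPM in the double mutant and 7.25 and 12.2 CPM in daf-2 (-1.16 ± 0.24, adjusted p = 0.208). egl-19, the L-type calcium channel subunit of muscle and neurons, had 4.0 and 4.23 CPM in the double mutant and 6.24 and 10.1 CPM in daf-2 (-0.99 ± 0.24, adjusted p = 0.247). unc-13 had 11 and 8.41 CPM in the double mutant and 16.9 and 19.8 CPM in daf-2 (-0.92 ± 0.17, adjusted p = 0.182). The peptide processing gene egl-3, by contrast, had 11.1 and 10.1 CPM in the double mutant, close to the 13.9 CPM of daf-2 replicate 1 and far below the 48.2 CPM of replicate 2 (-1.55 ± 0.47, adjusted p = 0.263).

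In the double mutant relative to hel-1, 1 member rose, 2 fell and 27 did not pass, where 2.96% of all tested genes were called higher and 2.65% lower (5.61% in all). The gene that rose was tbh-1, with 275 and 299 CPM in the double mutant and 171 and 169 CPM in hel-1 (0.76 ± 0.09, adjusted p = 0.0043, 1.69-fold). Both double-mutant values were above both hel-1 values, and the wild-type libraries, at 186 and 207 CPM, lay between the genotypes. The call ended without hel-1 replicate 1 (adjusted p = 0.051) and without double-mutant replicate 2 (0.0734).

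The 2 that fell were unc-104 and aex-3. unc-104 (chromosome II, 6994987 to 7010625, plus strand) had 4.24 and 4.45 CPM in the double mutant and 9.86 and 9.73 CPM in hel-1 (-1.17 ± 0.24, adjusted p = 0.0338). aex-3 (chromosome X, 751203 to 759734, minus strand), which encodes the exchange factor that activates RAB-3, had 5.32 and 4.20 CPM in the double mutant and 7.64 and 9.26 CPM in hel-1 (-0.83 ± 0.18, adjusted p = 0.0419). The genotypes did not overlap for either gene, and the wild-type libraries lay between them, at 8.08 and 6.99 CPM for unc-104 and 6.37 and 6.37 CPM for aex-3. Both calls ended when 1 library of wild type, of hel-1 or of the double mutant was left out, whichever it was, and that of aex-3 also in a fit with replicate number as a block (adjusted p = 0.0623).

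The remaining members lay mostly on the lower side in this comparison. In 20 of the 30 tested members both double-mutant libraries were below both hel-1 libraries and in 5 above, where these shares were 34.5% and 32.4% of all tested genes, and the median was -0.28 (-0.0118 over all tested genes). rab-3 had 1.74 and 1.32 CPM in the double mutant and 3.37 and 3.62 CPM in hel-1 (-1.19 ± 0.38, adjusted p = 0.121). egl-19 had 4.0 and 4.23 CPM in the double mutant and 6.52 and 6.80 CPM in hel-1 (-0.69 ± 0.24, adjusted p = 0.143). unc-13 did not move that way, with 11 and 8.41 CPM in the double mutant and 8.88 and 10.5 CPM in hel-1 (0.0029 ± 0.17, adjusted p = 0.994). With either daf-2 library left out, 8 members were called lower, where 7.01% (without replicate 1) and 7.73% (without replicate 2) of all tested genes were. Sperm markers had a median of -1.47 in this comparison, hypodermis markers -0.36, pharynx markers -0.42 and neuron markers -0.096, and their part in the members' values was not tested.

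**Figure D5:**
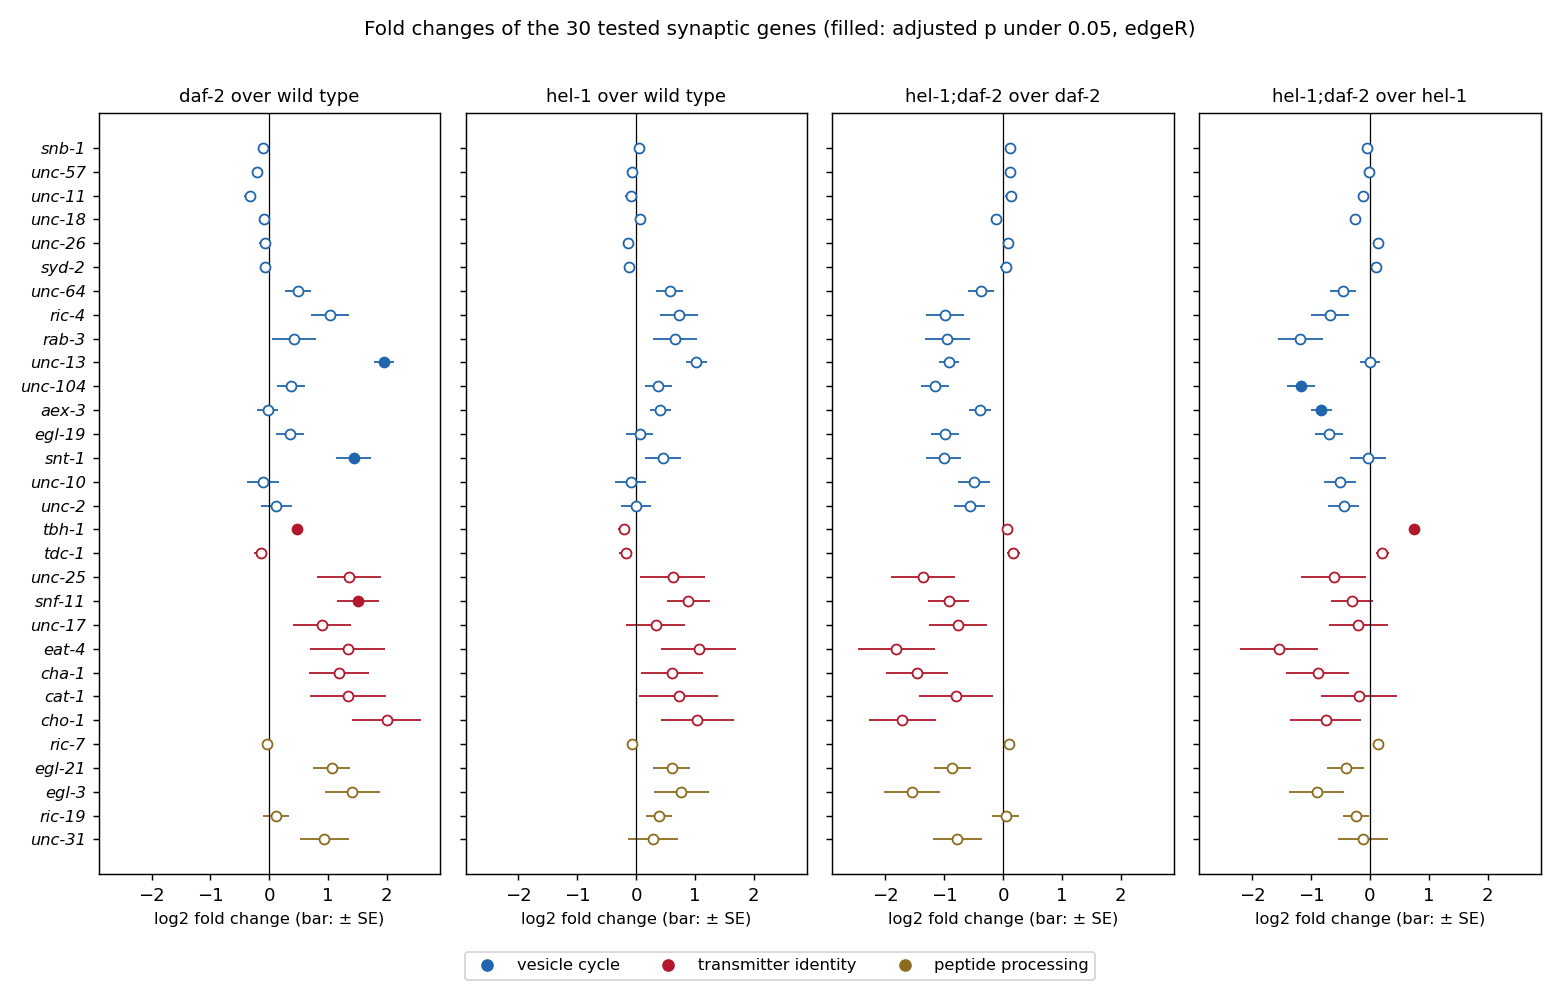
Log2 fold change with SE of each of the 30 tested members in the 4 pairwise comparisons, ordered by level within each group, with filled points for an adjusted p under 0.05. The members with high levels, at the top of each group, lie near 0 in all 4 panels (tbh-1 and egl-21 excepted), while most of the others lie right of 0 in daf-2 and hel-1 relative to wild type and left of 0 in the double mutant relative to daf-2.

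The interaction sets the change with hel-1 in a daf-2 background, meaning the double mutant relative to daf-2, against the change with hel-1 in a wild-type background. Of the 30 tested members 1 was called lower, 0 higher and 29 did not pass, where 0.751% of all tested genes were called lower and 0.0729% higher (0.823% in all). The one called was unc-13, whose log2 fold change with hel-1 was -0.92 ± 0.17 in the daf-2 background and 1.03 ± 0.18 in the wild-type background, a difference of -1.95 ± 0.24 (adjusted p = 0.020). Its level was thus 9.69 ± 1.81 CPM in the double mutant, 18.4 ± 2.03 CPM in daf-2, 9.68 ± 1.13 CPM in hel-1 and 4.74 ± 0.00876 CPM in wild type (SD, n = 2 each). The call ended without either wild-type library, without hel-1 replicate 2 and without either double-mutant library, with adjusted p between 0.069 and 0.0943. The median of the members was -1.05 (-0.0941 over all tested genes) and -0.64 without daf-2 replicate 2, with 2 members called lower there (0.897% of all tested genes). At an unadjusted p under 0.05 1 member was higher and 15 were lower, where 9.41% and 18.3% of all tested genes were, and without daf-2 replicate 2 12 were lower (13.1%). Marker medians in the interaction were -3.26 for pharynx, -1.51 for hypodermis, -1.48 for sperm, -0.84 for body wall muscle, -0.53 for neurons and 0.38 for oocytes and germline, and their part in the members' values was not tested. The 4 pairwise comparisons and the interaction share libraries, so their values are not independent of each other.

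The octopamine branch, which held most of the transmitter counts, is given apart. tdc-1 had 255 and 251 CPM in the double mutant, 245 and 203 CPM in daf-2, 219 and 218 CPM in hel-1 and 233 and 262 CPM in wild type, and passed in no comparison of the 4. The largest of its log2 fold changes in size was 0.21 ± 0.11, in the double mutant relative to hel-1 (adjusted p = 0.277). tbh-1, the next enzyme of the pathway, was at 260 to 299 CPM in all 4 libraries that carry daf-2(e1370) and at 169 to 207 CPM in the 4 that do not. The ratio of tbh-1 to tdc-1 counts in a library was 1.08 and 1.19 for the double mutant, 1.17 and 1.28 for daf-2, 0.779 and 0.776 for hel-1, and 0.800 and 0.789 for wild type. It was above 1 with daf-2(e1370) and below 1 without it in every library.

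Markers of the gonad sheath, where these enzymes are also made, and of the uterus summed to 10.8 and 11 CPM in the double mutant, 11.9 and 16.3 CPM in daf-2, 9.81 and 9.13 CPM in hel-1 and 9.97 and 8.26 CPM in wild type. Of the 5 genes of that list 4 were tested, and in daf-2 relative to wild type their log2 fold changes ran from 0.34 (lim-7, adjusted p = 0.202) to 1.34 (ins-37, adjusted p = 0.259), with the smallest adjusted p for ceh-18 (0.77 ± 0.23, adjusted p = 0.0521). ocr-4, a marker of uterine neuroendocrine cells, had 5 counts in all 8 libraries together. The part of these cells in the tbh-1 values was not tested.

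The 3 members below the count filter were not tested with it. unc-47, the vesicular GABA transporter, had 18 counts in daf-2 and 3 in wild type over both libraries, a ratio of 5.56 with an exact 95% interval of 1.62 to 29.5 that covers counting error only, and 9 counts in hel-1 (ratio to wild type 2.86, interval 0.714 to 16.4). cat-2, the tyrosine hydroxylase of dopamine neurons, had 15 counts in all libraries, 6 of them in daf-2 and 2 in wild type (ratio 2.78, interval 0.497 to 28.2). tph-1 had 0.210 and 0.282 CPM in the double mutant, 0.252 and 0.399 CPM in daf-2, 0.186 and 0.0623 CPM in hel-1 and 0.174 and 0.0931 CPM in wild type. For all 3 genes daf-2 replicate 2 was the highest library. Its CPM of unc-47 was 3.95 times that of replicate 1, and all 6 daf-2 counts of cat-2 came from it. The pooled ratios of daf-2 to wild type thus rest mostly on that library.

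A wider list of 126 other genes of synapses, transmitter metabolism, peptide processing and transmitter receptors, of which 118 were tested, was read beside the members. In daf-2 relative to wild type 14 rose and 1 fell (12.1% and 7.21% of all tested genes), with a median of 0.42. With only these 2 genotypes in the fit 2 rose and 0 fell, where 2.63% and 0.583% of all tested genes did. The log2 difference between daf-2 replicate 2 and replicate 1 had a median of 0.34 over this list. In hel-1 relative to wild type and in the double mutant relative to daf-2, edgeR called 0 (medians 0.22 and -0.45). At an unadjusted p under 0.05 these comparisons had 8 higher with 1 lower (8.91% and 3.29% of all tested genes), and 0 higher with 32 lower (4.01% and 12.8%). DESeq2 called 2 higher in the first and 6 lower in the second, where 1.55% and 1.77% of all tested genes were. In the double mutant relative to hel-1 2 rose and 2 fell, where 2.96% and 2.65% of all tested genes did. With only these 2 genotypes in the fit 3 rose and 15 fell, where 10.8% and 11.5% of all tested genes did. With the replicate block 0 fell, where 2.36% of all tested genes did.

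The largest change of the wider list was in unc-38, an alpha subunit of the levamisole-sensitive acetylcholine receptor of body wall muscle. It had 49.7 and 47.8 CPM in the double mutant, 39.9 and 50.7 CPM in daf-2, 0.530 and 0.810 CPM in hel-1 and 0.523 and 0.466 CPM in wild type. All 4 libraries with daf-2(e1370) were far above all 4 libraries without it. The log2 fold change was 6.51 ± 0.21 in daf-2 relative to wild type (adjusted p = 1.1e-05) and 6.20 ± 0.20 in the double mutant relative to hel-1 (9.4e-06), and both calls held in all 8 fits that left out 1 library. unc-38 shares 22 exon bases with F21F3.4 on the other strand.

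snt-5, a synaptotagmin gene, had its highest levels in daf-2, with 5.26 and 5.46 CPM in the double mutant, 11.6 and 11.3 CPM in daf-2, 5.83 and 5.30 CPM in hel-1 and 5.23 and 5.37 CPM in wild type. The 2 daf-2 libraries were close to each other and above the other 6. It rose in daf-2 relative to wild type (1.11 ± 0.14, adjusted p = 0.0040), held in all 8 fits that left out 1 library. In the double mutant relative to daf-2 DESeq2 gave -1.05 (adjusted p = 0.00239), while edgeR did not call it.

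The other called genes that the naming rule takes were in degradation, synthesis, transport and channels. nep-1, a neprilysin-like peptidase gene, rose in daf-2 relative to wild type (0.79 ± 0.14, adjusted p = 0.0117) and in the double mutant relative to hel-1 (0.69 ± 0.14, adjusted p = 0.0278). pah-1, phenylalanine hydroxylase, rose in daf-2 relative to wild type (1.20 ± 0.24, adjusted p = 0.0178), and arl-8, a GTPase of vesicle precursor transport, fell (-0.28 ± 0.07, adjusted p = 0.0339). In the double mutant relative to hel-1, ccb-1, a calcium channel beta subunit gene, fell (-0.84 ± 0.18, adjusted p = 0.0416), as did glc-4, a glutamate-gated chloride channel gene (-2.15 ± 0.47, adjusted p = 0.0426). None of these calls held in all 8 fits that left out 1 library. In daf-2 relative to wild type nep-1 was called in 7, pah-1 in 6 and arl-8 in 1, and in the double mutant relative to hel-1 nep-1 was called in 4, and ccb-1 and glc-4 in 2 each.

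Some members share exon sequence with a neighbour, and their counts are uncertain to that extent. unc-17 and cha-1 (choline acetyltransferase) share 66 exon bases on the same strand. On the other strand, eat-4 shares 79 bases with ZK512.2 and 40 with ZK512.7, which had 21371 and 7853 counts beside 155 for eat-4. Also on the other strand, tbh-1 shares 372 bases with H13N06.7 and 26 with suox-1, which had 9 and 5254 counts beside 63096 for tbh-1. tdc-1 shares 73 bases with gei-14, unc-26 shares 66 with JC8.16 and unc-64 shares 64 with set-25. tph-1 shares 43 with ZK1290.10 and rab-3 shares 25 with damt-1. No source used here says whether counting took account of strand.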

How the data were processed

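Whole-worm RNA of 8 libraries, 2 per genotype, was isolated with RNA Isoplus and read on an Illumina HiSeq, per the labels. The values are expected counts per gene from RSEM, deposited by the authors as 1 file per library. Besides RSEM 1.3.1 and the build WBcel235, the submitters' processing notes list HTSeq, Bowtie and TopHat2 as well as FastQC, cutadapt and edgeR. The aligner behind the counts and the use of strand are not given in the sources used here.

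Expected counts were rounded, which altered 2.03 to 2.79% of the values in a library. Among 46904 genes, 13722 passed edgeR's filterByExpr and held at least 99.93% of each library's counts. The test was edgeR's quasi-likelihood F-test (edgeR 4.0.16, R 4.3.3) in 1 model of 4 genotype means scaled by TMM (4 residual degrees of freedom, common biological coefficient of variation 0.168), and Benjamini-Hochberg adjustment over all tested genes of a comparison. The standard error is the log2 fold change divided by the root of F. P-values measure the spread between these libraries. CPM use TMM-scaled library sizes, and levels between genes are CPM per kb of annotated exon. Log2 differences between the 2 libraries of a genotype were taken on CPM + 0.5. Libraries of a genotype differed beyond counting noise (chi-square per gene 8.53 to 82.5), so none was counted as a repeat of another.

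The members and lists were chosen with earlier results of these data known. All 33 members may be named, and from the wider list up to 4 called genes per direction and comparison with the smallest adjusted p, or the 2 best expressed. The limit of 10 CPM per kb was set after the values were seen. 3 names of the wider list (rab-27, apm-2 and erp-1) and the intestine marker opt-2 had no match in the annotation. Alternatives were the RLE scaling of edgeR, DESeq2 1.42.0, no filter, only the 2 genotypes compared, a replicate block, and each library left out. The fit was tested on simulated data. No sequence table was used.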

Additional observations from a re-analysis of the deposited data

Results flagged for a closer look

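The difference of unc-13 with the hel-1 mutation had opposite signs in the 2 backgrounds, and the test of the difference between backgrounds passed. Its log2 fold change with hel-1 was -0.92 ± 0.17 in the daf-2 background (11 and 8.41 CPM in the double mutant, 16.9 and 19.8 CPM in daf-2) and 1.03 ± 0.18 in the wild-type background (8.88 and 10.5 CPM in hel-1, 4.74 and 4.75 CPM in wild type). The difference was -1.95 ± 0.24 (edgeR, adjusted p = 0.020). Neither of the single changes passed edgeR's test on its own (adjusted p = 0.182 and 0.0654), and over the fits that left out 1 library the difference lay between -2.14 and -1.76 and was called in 3 of 8. No group has 4 or more libraries, so no test for an outlier within a group was run. daf-2 replicate 2 was set apart by the description given above only.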

How the results depend on the processing

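Of 2429 values of single genes under the alternatives, 2150 kept their direction and their side of the threshold, 69 lost a call, 158 gained one, 52 changed sign with no call in either fit, and 0 reversed a call. RLE scaling changed no count of called members beyond 1.5 times. With DESeq2, 6 members were called higher and 1 lower in daf-2 relative to wild type, where 10.8% and 10.5% of all tested genes were. It called 1 higher in hel-1 relative to wild type (1.55%), 3 lower in the double mutant relative to daf-2 (1.77%), and 4 lower in the interaction (4.21%). Without the filter, which then tests all 33 members, the counts were 9 higher and 1 lower, 1 higher, 5 lower, and 8 lower in the same order. The shares of all genes in that fit were 11.7% and 6.39%, 1.61%, 2.91%, and 5.71%. With only the 2 genotypes compared in the fit, 1 member was higher in daf-2 and 3 were higher in hel-1 relative to wild type (2.63% and 1.42% of all tested genes). In the double mutant relative to hel-1, 2 were then higher and 10 lower (10.8% and 11.5%). The cause of these shifts was not tested.

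With 1 library left out, the lone library of a genotype being assumed to vary like the others, members called higher in daf-2 relative to wild type ranged from 1 to 19 and lower from 0 to 4, with medians from 0.0637 to 0.79. The highest values came without daf-2 replicate 1 and the lowest median without daf-2 replicate 2. In every comparison and in the interaction, the calls over all tested genes also changed in number with the library left out. The ranges of called members in this paragraph are therefore not read as particular to the members. In hel-1 relative to wild type 0 to 3 were higher and 0 lower (medians 0.32 to 0.44). In the double mutant relative to daf-2, 0 to 5 were higher and 0 to 17 lower (-1.12 to -0.13), and relative to hel-1, 0 to 1 higher and 0 to 8 lower (-0.35 to -0.27). In the interaction 0 to 6 were higher and 0 to 18 lower (-1.42 to -0.64).

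The replicate numbers were not used to pair the libraries in the main fit. The correlation of replicate deviations between genotypes ran from -0.48 (wild type and daf-2) to 0.21 (wild type and hel-1). Large differences within single pairs could hide a shared preparation, so these values cannot decide whether libraries were paired. With replicate number as a block, 1 member was lower in daf-2 relative to wild type and 1 was lower in the double mutant relative to hel-1. Over all tested genes 6.65% and 2.36% were lower there, and the other counts of called members stayed within 1.5 times. Depth limits the 10 transmitter genes other than tdc-1 and tbh-1, with 15 to 703 counts each over all libraries.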

Other observations

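The wider synapse list divides into 4 sets. In daf-2 relative to wild type, 4 of 19 tested genes of transmitter synthesis, transport and uptake rose (median log2 fold change 0.95), 2 of 40 tested transmitter receptor genes rose (0.43), 4 of 17 further peptide processing and release genes rose (0.15), and 4 of 42 further vesicle cycle genes rose with 1 lower (0.17), where 12.1% of all tested genes were called higher and 7.21% lower. Without daf-2 replicate 2, 2, 1, 2 and 1 genes of these sets rose in the same order and 0 fell, where 6.34% of all tested genes were called higher and 3.67% lower. The log2 difference between daf-2 replicate 2 and replicate 1 had a median of 0.77, 0.51, 0.0781 and 0.18 in these 4 sets. The receptor set summed to 98.5 and 92.1 CPM in the double mutant, 91.9 and 138 CPM in daf-2, 60.3 and 60.8 CPM in hel-1 and 54 and 46.3 CPM in wild type, sums that hold the unc-38 counts given above.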
